A study of Drosophila melanogaster with 2 samples.

Results

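Of the 3388 D1-eGFP peaks reported for both replicates, 142 (4.19%) had their summit at a bidirectional promoter, on the upstream side. A peak was counted here when its summit lay within 500 bp of annotated starts of at least 2 genes on opposite strands and was upstream of, or at, the nearest of these starts. No signal value entered this choice, only the peak's presence in the list and the position of its summit. The distances and arrangements of starts given below are therefore shaped by the rule. These 142 peaks made up 11.2% of the 1271 peaks within 500 bp of any start. The other peaks near starts were 858 upstream of promoters with starts on 1 strand, 53 at bidirectional promoters but downstream of the nearest start, and 218 downstream of starts on 1 strand. The remaining 2117 peaks were over 500 bp from any start.

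The data are chromatin immunoprecipitation followed by sequencing (ChIP-seq) from whole Drosophila melanogaster pupae aged 24 hours, in 1 group of 2 biological replicates. Both replicates came from a transgenic line that stably expresses D1 fused to GFP at its C-terminal end, and the precipitation used an antibody against GFP. The labels record no sex, mutation or second condition, so there is no group to compare with, and no difference given here was tested over samples. The material mixes all cell types of the pupa, and the antibody sees the tagged transgene product rather than the native protein. Each list gives a signal per peak, which is the authors' own value on a scale the sources used here do not give, and read depth is unknown. The IDR list, named for the irreproducible discovery rate that compares replicates, and the 2 replicate lists have signals of their own range, so values are compared within a list.

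D1 is a chromosomal protein of flies with many AT hooks, short segments that lie in the minor groove of AT-rich DNA, and it is best known for binding satellite repeats in heterochromatin. A bidirectional promoter is the short stretch between the starts of 2 genes that are transcribed away from each other. Such pairs are common in the compact fly genome, often among genes that most cells use, and their promoters frequently carry words bound by the factors DREF, M1BP and BEAF-32.

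The sequences below show what lay under the strongest of these peaks. They belong to head-to-head promoters among the highest in signal; those of Pdrg1/Pal1, CG8788/alc and PIG-G/CG1602, which rank with them, are not printed. The sequence is from the Release 6 (dm6) assembly, plus strand, written 5′ to 3′. Capitals mark runs of 8 or more A or T bases. Each window of 121 bases is centred on the summit. For CG13390/CG17294 the whole stretch of 239 bases from start to start is given instead, chr2L:8376797-8377035, with its summit at base 8376884. The other windows are chr3R:24109128-24109248 (CG18428/eIF4EHP), chr3R:27636128-27636248 (CG5611/Mtl), chr3R:13364588-13364708 and chr3R:13364788-13364908 (both Elp6/Dic1), and chr2L:8162838-8162958 (Piezo/Acbp1).
CG18428/eIF4EHP: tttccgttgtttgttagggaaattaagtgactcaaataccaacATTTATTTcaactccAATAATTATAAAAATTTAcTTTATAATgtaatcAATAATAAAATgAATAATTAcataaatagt
CG5611/Mtl: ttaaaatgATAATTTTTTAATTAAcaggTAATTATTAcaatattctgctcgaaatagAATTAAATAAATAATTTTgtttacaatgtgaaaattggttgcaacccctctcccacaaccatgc
CG13390/CG17294: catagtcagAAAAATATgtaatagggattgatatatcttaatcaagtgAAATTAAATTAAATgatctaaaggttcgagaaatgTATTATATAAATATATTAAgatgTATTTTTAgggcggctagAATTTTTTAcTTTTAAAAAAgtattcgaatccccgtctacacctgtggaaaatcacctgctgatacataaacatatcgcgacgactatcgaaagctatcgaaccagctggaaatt
Elp6/Dic1, summit nearer Elp6: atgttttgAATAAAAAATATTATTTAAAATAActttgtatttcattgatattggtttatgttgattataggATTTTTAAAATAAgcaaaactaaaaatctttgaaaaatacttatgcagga
Elp6/Dic1, summit nearer Dic1: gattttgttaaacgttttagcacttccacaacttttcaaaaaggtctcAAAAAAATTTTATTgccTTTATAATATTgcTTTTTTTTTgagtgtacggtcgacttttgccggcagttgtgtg
Piezo/Acbp1: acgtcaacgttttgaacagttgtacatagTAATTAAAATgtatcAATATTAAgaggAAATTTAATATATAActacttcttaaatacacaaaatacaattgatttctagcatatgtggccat
Each stretch held between 2 and 6 separate A/T runs of this length, with other bases between them. The AT content of the printed stretch was 79.3% at CG18428/eIF4EHP, 73.6% at CG5611/Mtl, 69.0% at CG13390/CG17294 and 74.4% at Piezo/Acbp1. At Elp6/Dic1 it was 81.8% under the summit nearer Elp6 and 66.9% under the summit nearer Dic1.

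For contrast, a pair of coding genes with closely spaced starts and no summit in any of the 30000 peaks of the pooled list is printed next. It was chosen after values were seen, as the promoter nearest the mean AT content (59.3%) of 280 such promoters of 101 to 200 bp, counted with 1 chromosome arm left out, among those that hold the DREF word. It is chrX:13154924-13155038, plus strand, and the capitals mark TATCGATA.
CG4318/CG4332: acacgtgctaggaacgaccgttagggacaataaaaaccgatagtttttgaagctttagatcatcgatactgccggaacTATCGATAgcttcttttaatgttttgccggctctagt
Its 115 bases were 58.3% AT. A close pair with this word does not stand for all head-to-head promoters without an IDR summit. TATCGATA was in the middle 200 bp of 11.9% of the 464 such promoters of 101 to 200 bp. The middles of the 408 such promoters of 301 to 400 bp averaged 69.6% AT.

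The 142 peaks lay at 138 gene pairs, and 290 genes had a start within 500 bp of them, which is 1.6% of the 18164 annotated genes on the 6 chromosome arms. Of the peaks, 130 had 2 such genes, 10 had 3 and 2 had 4. Both nearest starts belonged to protein-coding genes at 107 peaks (75.4%). A coding gene faced a non-coding RNA gene at 23 peaks, of which 12 were nearer the coding start. A coding gene faced a tRNA gene at 5 peaks, a pseudogene at 2 and a small nuclear RNA gene at 1. Both starts were tRNA genes at 3 peaks and long non-coding RNA genes at 1.

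Most of these summits sat between divergent starts, which the choice of the upstream side favours. In 129 peaks (90.8%) the genes were head to head, so the summit lay upstream of both starts. A summit outside a head-to-head pair would have been downstream of its nearest start, so the rule left it out. The 53 peaks at bidirectional promoters but downstream of the nearest start are not part of this share. In the other 13 the summit was upstream of the nearest start and downstream of the opposite one. In 11 of these the genes overlapped and the summit lay inside the gene of the opposite strand, and in 2, both pairs of tRNA genes, it lay past that gene's end. The head-to-head starts were a median of 375 bp apart (quartiles 274 and 520 bp, range 46 to 928 bp). The summit was a median of 136.5 bp from the nearest start and 242.5 bp from the opposite one, over all 142 peaks. In head-to-head promoters it was a median of 48 bp from the midpoint of the starts, with quartiles of 14 and 85 bp, and 105 of 129 summits (81.4%) lay in the middle 50% of the stretch. The limit of 500 bp to both starts itself keeps summits of widely spaced pairs near the middle. In the 42 pairs at most 300 bp apart, where that limit has no such effect, the median distance to the midpoint was 33.3 bp and to the nearest start 75 bp. Neither strand was favoured by much: the nearest start was on the plus strand in 78 of 142 peaks. Both starts lay inside the peak itself in 47 cases (33.1%), with 420 bp the width of 93.0% of these peaks and of 94.1% of all peaks in the list.

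**Figure D1:**
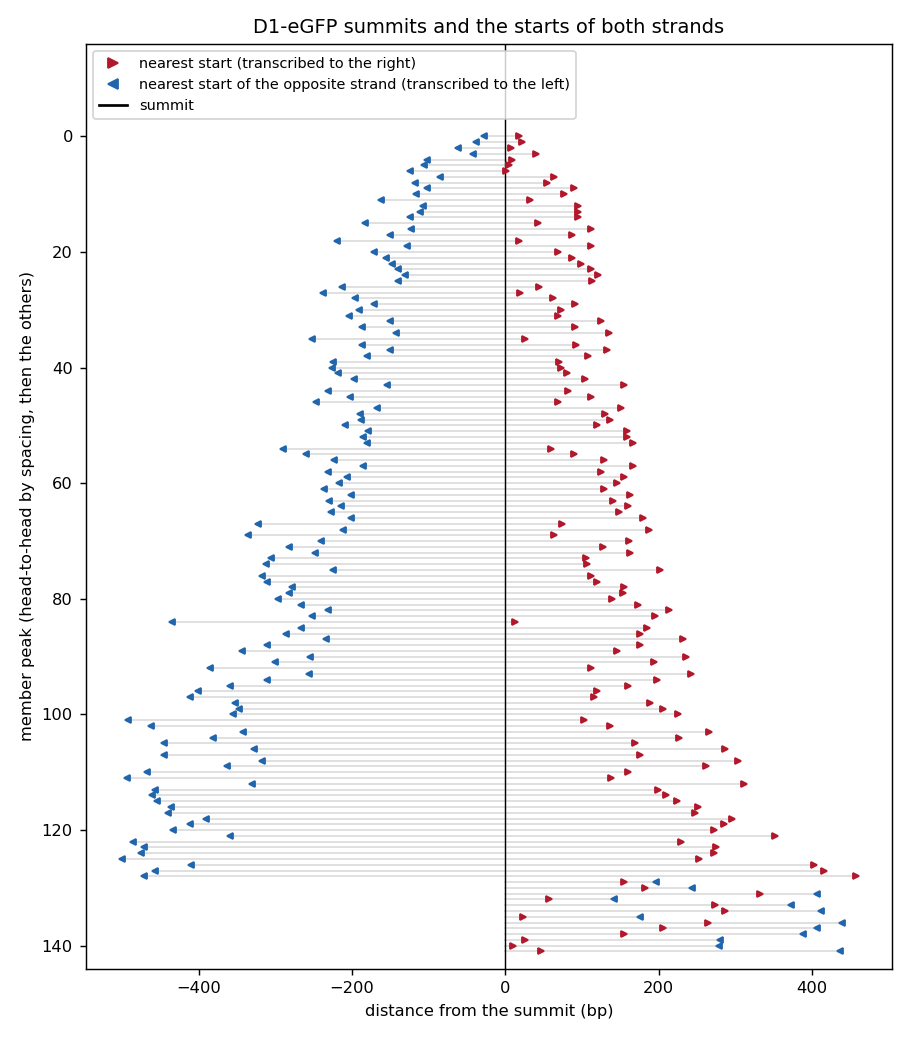
Position of the nearest start and of the nearest opposite-strand start relative to the summit (x axis, bp; the nearest start is drawn to the right) for each of the 142 peaks (y axis, the 129 head-to-head promoters by spacing, then the 13 others). The summits of head-to-head pairs lay a median of 48 bp from the midpoint of the starts.

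Near the limit of 500 bp, the members with the farthest second start were Glyat/Tg at 500 bp, with a signal of 152, and CG15097/CG15082 at 494 bp, with a signal of 174. Just outside it were fs(2)ltoPP43/sick at 501 bp, with a signal of 183, and cer/asRNA:CR45925 at 506 bp, with a signal of 283. In all, 28 members had their second start 401 to 500 bp away, and 29 peaks outside the set had theirs 501 to 600 bp away.

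The highest signal was 898, between CG18428 and eIF4EHP, which encodes a cap-binding protein that represses translation. The replicate lists gave 493 in replicate 1 and 413 in replicate 2, and the summit was 148 bp from CG18428 and 228 bp from eIF4EHP. This peak was the highest of its kind in both replicates. Pdrg1/Pal1 followed with 705 (339 in replicate 1, 353 in replicate 2), and Pal1 encodes an enzyme of peptide amidation. CG8788/alc had 680 (289 and 408), and alc encodes the beta subunit of AMP-activated kinase. CG5611/Mtl had 644 (341 and 306). CG13390/CG17294 had 620 (313 and 301). The replicates gave no common order for these 5: the second highest was CG5611/Mtl in replicate 1 and CG8788/alc in replicate 2.

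The gene pair Elp6, which encodes an Elongator subunit, and Dic1, which encodes a mitochondrial dicarboxylate carrier, held 3 summits. Each gene has alternative starts. Between a first pair of their starts, 350 bp apart, a summit with a signal of 565 stood 60 bp from Elp6 and another with 537 stood 90 bp from Dic1. The summit nearer Dic1 had 287 in replicate 1 and 251 in replicate 2. The summit nearer Elp6 had 302 in replicate 2 and no replicate 1 summit within 100 bp. The other summit had a signal of 198 (97.5 and 101) and lay near the middle of a second, separate pair of starts, 622 bp apart. At 2 further pairs there were 2 summits each: lncRNA:CR43644 with E(spl)m3-HLH, a Notch-responsive repressor, and EcR, the ecdysone receptor, with tRNA:Arg-ACG-1-3.

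The rest of the 12 highest peaks had signals from 415 to 554. PIG-G/CG1602 had 554 (325 in replicate 1, 237 in replicate 2), with PIG-G an enzyme of GPI-anchor synthesis. The peak at bib, a neurogenic gene of the aquaporin family, and lncRNA:CR13130 had 518 (253 and 272). It was the only one of the 12 whose 2 nearest starts were not head to head. Piezo/Acbp1, a mechanosensitive channel gene and an acyl-CoA-binding protein gene, had 493, with 282 in replicate 1 but 70.5 in replicate 2. That was the widest gap between replicates among the 11 of these 12 peaks with a summit of both replicates within 100 bp. Lamtor3/fws, a subunit of the Ragulator complex and a Golgi tethering protein, had 480 (240 and 233). The highest on the X chromosome was bves/Stt3A with 415 (231 and 183), Stt3A being a catalytic subunit of oligosaccharyltransferase.

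**Figure D2:**
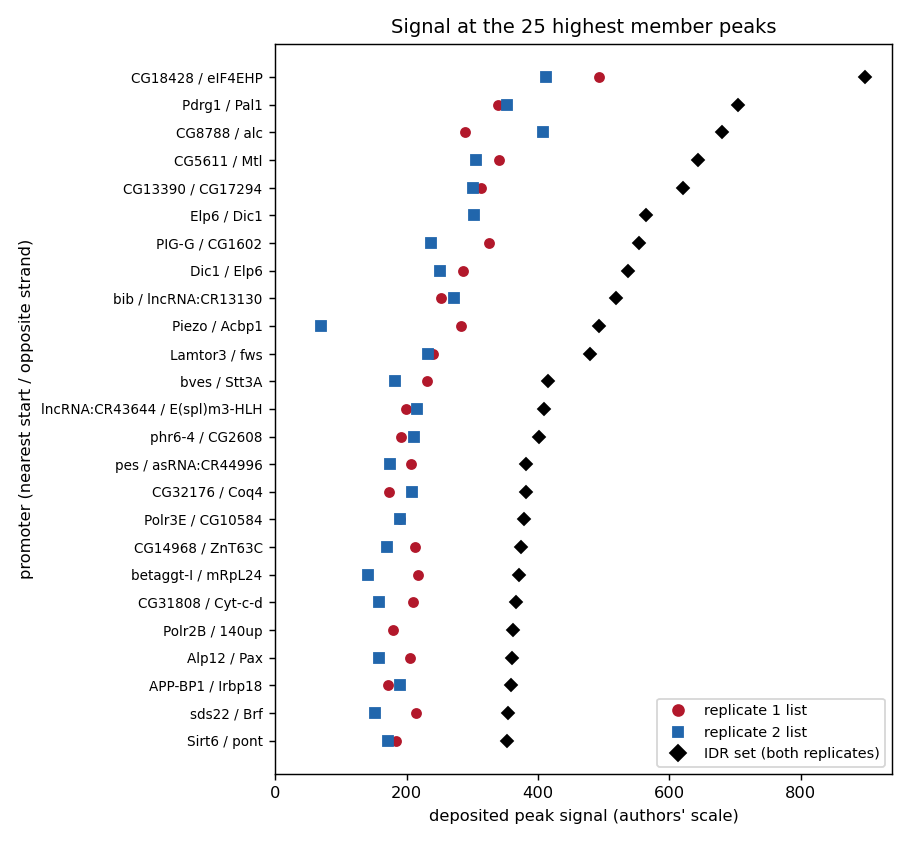
Deposited signal (x axis, authors' scale) at the 25 highest of the 142 peaks (y axis, nearest gene and opposite-strand gene) in the IDR set (diamonds) and in the lists of replicate 1 (circles) and replicate 2 (squares). A missing symbol means no summit of that replicate within 100 bp; CG18428/eIF4EHP is highest at 898, and Piezo/Acbp1 stands apart with 282 in replicate 1 and 70.5 in replicate 2.

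On the remaining arms, the highest peak of 3L was CG32176/Coq4, next to a ubiquinone synthesis gene, with 382 (173 in replicate 1, 208 in replicate 2). Chromosome 4 had 3 of these peaks, and the highest, with 177 (88.5 and 85.0), lay between mav, a TGF-beta ligand gene, and a gene the annotation names only by an identifier. The lowest signals were 142.3 at SRPK/dup and 142.5 at Es2/CG15347. SRPK/dup had 61.8 in replicate 2 and no replicate 1 summit within 100 bp. Es2/CG15347 had 69.5 in replicate 1 and 71.4 in replicate 2. SRPK encodes a kinase of splicing factors and dup the replication licensing factor Cdt1.

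As a whole, the signal of these peaks differed from that at promoters of 1 strand by less than the spread between replicates. Their median signal was 208 (quartiles 166 and 287), against 206 upstream of one-strand promoters, a ratio of 1.01. In the replicates' own lists of 3388 highest peaks, the ratio was 0.990 in replicate 1 and 1.03 in replicate 2 (mean 1.01 ± 0.0268, SD, n = 2). With the IDR set ranked by signal and cut into 4 groups of 847 peaks, 43, 32, 34 and 33 of the 142 fell in these groups from the highest to the lowest, and 8 were among the 100 highest peaks. A replicate 1 summit lay within 100 bp of 135 of the 142, a replicate 2 summit of 133, and summits of both of 126. Across these 126 peaks of the same 2 libraries, Pearson's r between replicates was 0.65 on log2 signals, and Spearman's rho was 0.56. The SD of the log2 ratio was 0.57, and 71 of 126 were higher in replicate 2.

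The summits lay in AT-rich DNA, more so than at promoters of 1 strand. AT content in 200 bp averaged 69.4% ± 6.75 (SD over 142 peaks), against 67.0% ± 7.19 over the 858 peaks upstream of one-strand promoters. The difference of 2.38 percentage points was 2.09 in replicate 1's list and 2.12 in replicate 2's (mean 2.10 ± 0.0177, SD, n = 2). The longest uninterrupted A/T run averaged 16.2 bp at these peaks and 14.9 bp at one-strand promoters, with a range of 6 to 36 bp over the 142. Because summits here were closer to a start (median 136.5 bp against 220 bp), the comparison was repeated by distance. At 0 to 99 bp from the nearest start AT content was 65.5% in 45 bidirectional and 63.5% in 139 one-strand peaks, a difference of 1.93 points (2.75 in replicate 1's list, 1.08 in replicate 2's). At 100 to 199 bp it was 72.2% in 64 and 66.3% in 240, a difference of 5.90 points that was 3.65 in replicate 1's list and 4.55 in replicate 2's. At 200 to 500 bp the values were 69.3% in 33 and 68.4% in 479, a difference of 0.921 points that was 1.88 and 2.25 in the replicates' lists. In all 3 ranges the bidirectional peaks had the higher mean, also in each replicate's list.

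The AT-rich stretch was narrow and bounded on both sides. In bins of 20 bp, mean AT content peaked at 73.2% at 30 bp on the far side of the summit, against 69.2% there at one-strand promoters. Toward the nearest start it fell off in both classes, to 51.9% at 330 bp in bidirectional peaks and 54.4% in one-strand peaks. On the other side the classes parted: at 350 bp AT content was 54.5%, against 61.2% upstream of one-strand promoters. By definition only the bidirectional class has an opposite-strand start within 500 bp, so a second gene near these summits is part of the choice of peaks. The distance to the opposite start had an upper quartile of 359 bp, so not all peaks had reached that start at 350 bp.

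**Figure D3:**
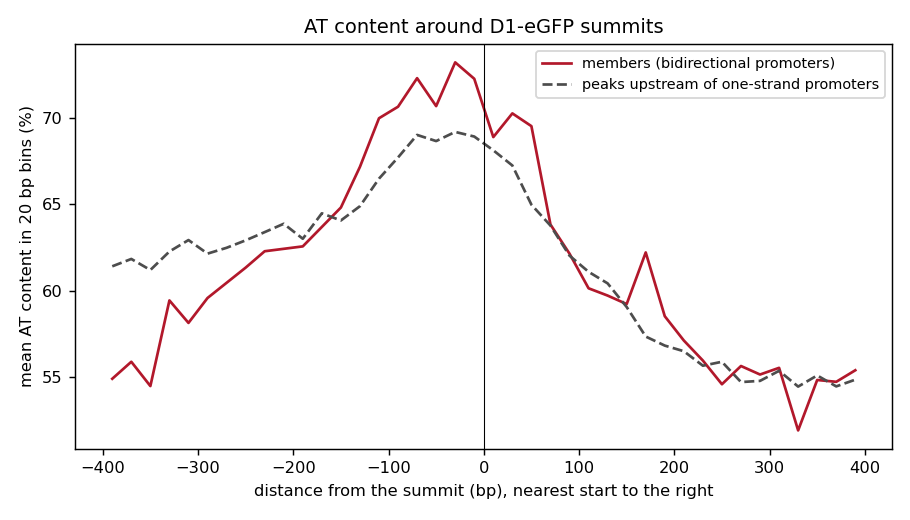
Mean AT content in 20 bp bins (y axis, %) by distance from the summit (x axis, bp, with the nearest start to the right) for the 142 bidirectional peaks (solid line) and the 858 peaks upstream of one-strand promoters (dashed line). The bidirectional profile is higher near the summit, at most 73.2% against 69.2%, and lower beyond it on the far side, 54.5% against 61.2% at 350 bp.

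Short words were counted on both strands of the 200 bp around each summit, and a match says only that the letters are there. AATAT, which repeats in tandem in a satellite bound by D1, was present in 125 of 142 windows (88.0%, exact 95% interval 81.5 to 92.9%), against 75.8% of one-strand windows and 70.6% of the middles of all 3111 head-to-head promoters. In the replicates' lists the shares were 84.5% against 75.5% in replicate 1 and 83.2% against 73.5% in replicate 2. Among windows of 65 to under 75% AT they were 92.7% of 82 bidirectional and 84.8% of 447 one-strand windows. TATAAA was in 50% of bidirectional and 41.6% of one-strand windows, but in 46.3% and 48.1% of those within the same AT range. The homopolymer AAAAAAAA was in 17.6% and 17.9%, and ATATATAT in 7.75% and 6.29%.

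The words of 2 factors differed in direction. GAGAG, the core bound by GAF, was in 17 of 142 windows (12%, interval 7.13 to 18.5%), against 23.2% of one-strand windows. It was in 16.1% against 25.8% in replicate 1's list and 14.6% against 25.4% in replicate 2's, and in 7.32% against 15.9% within the range of 65 to under 75% AT. The middles of all head-to-head promoters had it in 15.9%, which lies inside the interval of the 142 windows. CGATA, the core of the BEAF-32 word, was in 33.1% of bidirectional windows (interval 25.4 to 41.5%), against 25.3% of one-strand windows and 40.1% of all head-to-head middles. The bidirectional share lay between the other 2. Its interval holds the 40.1% of head-to-head middles, and its lower end is close to the 25.3% of one-strand windows. The share was 29.2% against 23.9% of one-strand windows in replicate 1's list and 31.4% against 24.9% in replicate 2's. Within the range of 65 to under 75% AT it was 36.6% of 82 bidirectional and 25.5% of 447 one-strand windows.

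The words of DREF and M1BP were present at few of these summits, and the exact intervals hold the shares of head-to-head promoters in general. TATCGATA, the DREF word, which contains CGATA, was in 6 of 142 windows (4.23%, interval 1.57 to 8.97%), against 3.38% of one-strand windows and 7.65% of all head-to-head middles. In the list of replicate 1 alone it was in 3 of 168 (1.79%), against 2.59% of one-strand windows, and in that of replicate 2 alone in 8 of 137 (5.84%), against 2.98%, so the direction was not the same in both. The share depended on the window, with 0.704% in 100 bp and 14.8% in 500 bp. GGTCACACT, the M1BP word, was in 5 windows (3.52%), against 1.52% of one-strand windows and 3.76% of head-to-head middles. CACGTG was in 0.704% against 2.33% of one-strand windows, and AGGTCA in 4.23% against 4.20% (1.79% against 4.83% in replicate 1's list, 5.84% against 3.93% in replicate 2's). The Zelda word CAGGTAG was in 0 of 142, which allows a share of up to 2.11%, against 0.466% of one-strand windows.

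The next stretches of 61 bases, plus strand, show where these words lay in the highest peak that holds each, with the word in capitals on whichever strand it reads. They are chr3R:24109227-24109287 for AATAT, chr3R:13364555-13364615 for AAAAAAAA, chr2L:17481192-17481252 for TATCGATA and chr3L:16231990-16232050 for GGTCACACT.
CG18428/eIF4EHP, AATAT: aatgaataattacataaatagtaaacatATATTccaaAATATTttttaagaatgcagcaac
Elp6/Dic1, AAAAAAAA: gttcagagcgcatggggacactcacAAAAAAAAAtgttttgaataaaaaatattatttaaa
Lamtor3/fws, TATCGATA: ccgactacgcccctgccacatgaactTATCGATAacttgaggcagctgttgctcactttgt
MED10/PDCD-5, GGTCACACT: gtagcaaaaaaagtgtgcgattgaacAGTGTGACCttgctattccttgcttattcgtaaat
The DREF word of Lamtor3/fws stood 86 bp from the summit in a stretch of 49.2% AT, while the 200 bp centred on the summit were 65% AT with an A/T run of 27 bp. The M1BP word of MED10/PDCD-5 stood 46 bp from its summit, outside the stretch between the starts, which are 46 bp apart, on the PDCD-5 side.

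**Figure D4:**
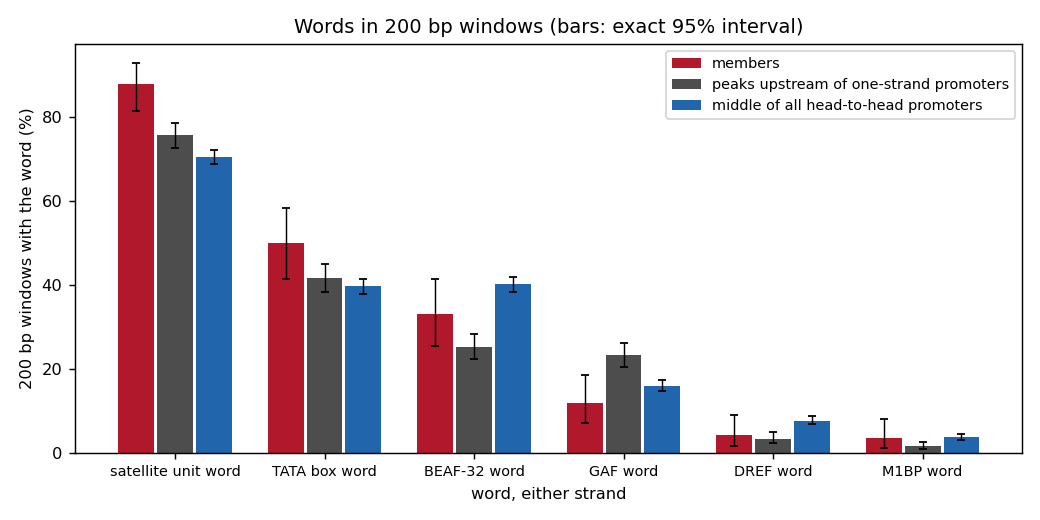
Share of 200 bp windows that hold a word on either strand (y axis, %; bars with exact 95% intervals) around the 142 summits, around the 858 summits upstream of one-strand promoters and at the middle of all 3111 head-to-head promoters. The satellite unit AATAT is most frequent at the 142 summits (88.0%). The GAF word is less frequent there (12%) than at one-strand summits (23.2%). Its interval of 7.13 to 18.5% holds the 15.9% of head-to-head middles.

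Most bidirectional promoters had no D1-eGFP peak. Of 3111 pairs of neighbouring divergent starts at most 1000 bp apart, 122 (3.92%, interval 3.27 to 4.66%) had an IDR summit between the starts and within 500 bp of both. The share was 4.69% in replicate 1's list and 3.89% in replicate 2's (mean 4.29% ± 0.568, SD, n = 2). Of 11220 genes with no opposite-strand start within 1000 bp, 677 (6.03%) had a summit at most 500 bp upstream, with 5.91% and 5.93% in the replicates' lists. The 2 shares do not count the same length of DNA. Per kb of eligible sequence the order was reversed, with 0.159 summits per kb in head-to-head promoters and 0.113 upstream of one-strand genes. The replicates' lists gave 0.190 and 0.158 per kb in head-to-head promoters, against 0.110 and 0.111 per kb upstream of one-strand genes. Over the whole pooled list of 30000 peaks, 377 head-to-head promoters (12.1%) had a summit. Peaks of the present kind became rarer down that list: they were 4.19% of the 3388 highest peaks, 2.37% of ranks 3389 to 10000, 1.13% of ranks 10001 to 20000 and 0.700% of ranks 20001 to 30000. Peaks upstream of one-strand promoters did so too, with 25.3, 14.1, 9.50 and 6.69%.

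Spacing and AT content both went with the presence of a summit. Only 0.811% of 493 promoters with starts at most 100 bp apart and 1.49% of 471 with 101 to 200 bp had one. The share was 4.93% of 609 at 201 to 300 bp, 5.77% of 433 at 301 to 400 bp, 5.49% of 565 at 401 to 600 bp and 4.63% of 540 at 601 to 1000 bp. Both replicate lists had their 2 lowest shares in the 2 closest classes (0.203% and 1.27% in replicate 1, 0.609% and 1.49% in replicate 2). Per kb of eligible sequence the IDR set had 0.142, 0.0996, 0.193, 0.172, 0.125 and 0.207 summits from the closest class to the widest, so the closest class was not the lowest on this scale. In both replicates' lists the 2 closest classes were below all others per kb. They had 0.0354 and 0.0853 summits per kb in replicate 1's list and 0.106 and 0.0996 in replicate 2's. By AT content of the 200 bp at the promoter's middle, a summit was present in 0 of 133 promoters under 50% AT, which allows a share of up to 2.26%. The share was 0.403% at 50 to under 55% AT, 0.761% at 55 to under 60%, 3.01% at 60 to under 65%, 4.02% at 65 to under 70% and 6.86% at 70% or more. Spacing and AT content moved together, with a median spacing of 174 bp in the lowest AT class and 396.5 bp in the highest. Among promoters of 201 to 600 bp alone, the share was 2.87% at 60 to under 65% AT, 4.66% at 65 to under 70% and 7.53% at 70% or more, and 1 of 193 promoters below 60% had a summit.

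**Figure D5:**
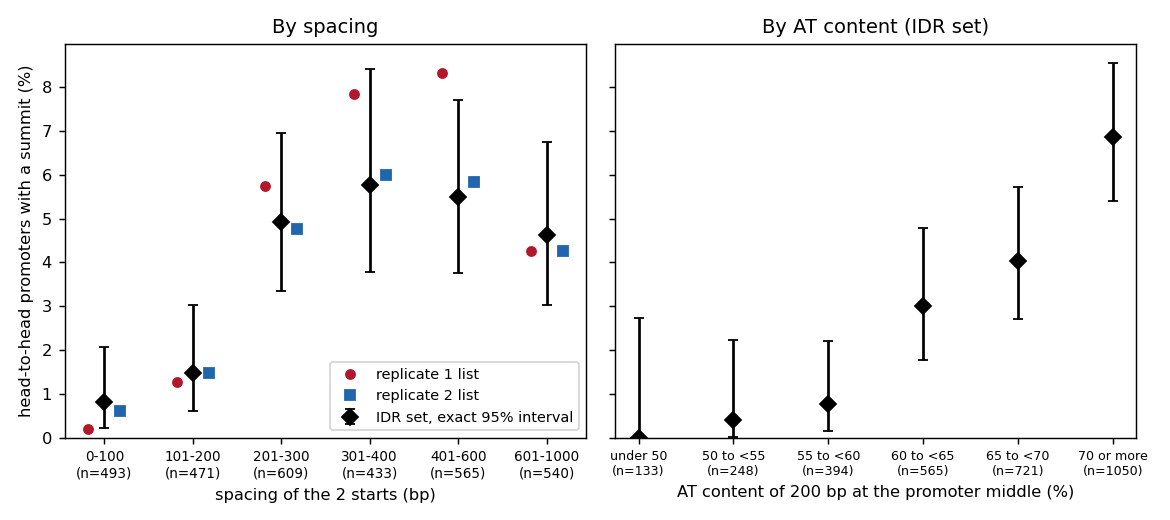
Share of the 3111 head-to-head promoters with a D1-eGFP summit (y axis, %) by spacing of the starts (left, bp) and by AT content of the middle 200 bp (right, %), with the number of promoters in each class. Diamonds are the IDR set with exact 95% intervals, circles and squares the lists of replicates 1 and 2; the share is 0.811% at a spacing of at most 100 bp and 6.86% at 70% AT or more.

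The middles of head-to-head promoters with a summit averaged 71.2% AT, against 65.2% in those without, and the promoters with a summit were the more AT-rich in each of the 6 spacing classes. Within a class the difference ran from 2.35 points at 101 to 200 bp (62.4% in 7 promoters with a summit, 60.1% in 464 without) to 6.25 points at 301 to 400 bp (75.9% in 25 with a summit, 69.6% in 408 without). AATAT was present in 86.9% of middles with a summit and 70% of those without. CGATA was in 28.7% and 40.6%, TATCGATA in 4.92% and 7.76%, and GGTCACACT in 0.820% and 3.88%. These 3 words were frequent in the closely spaced promoters that seldom had a summit: of the 489 without one at 100 bp or less, 59.3% had CGATA, 20% TATCGATA and 12.5% GGTCACACT. Whether the words differ at equal spacing could be read only from small numbers, and the direction varied between classes. TATCGATA was in 10% of 30 promoters with a summit and 7.43% of 579 without at 201 to 300 bp. At 301 to 400 bp it was in 0% of 25 and 4.66% of 408. CGATA was in 36.7% and 42.1% at 201 to 300 bp, and in 16% and 31.6% at 301 to 400 bp. It was in 29.0% and 27.7% at 401 to 600 bp, and in 16% and 26.8% at 601 to 1000 bp. In the 2 closest classes it was in 50% of 4 and 59.3% of 489, and in 71.4% of 7 and 57.1% of 464.

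By chromosome arm, 37 of the 142 peaks were on 2L, 21 on 2R, 39 on 3L, 30 on 3R, 3 on chromosome 4 and 12 on X. The share of head-to-head promoters with a summit was 5.15% on 2L (interval 3.55 to 7.20%), 2.87% on 2R (1.73 to 4.44%), 5.65% on 3L (3.92 to 7.84%) and 3.66% on 3R (2.43 to 5.29%). It was 1.86% on X (0.855 to 3.51%), the lowest of the 6, and 2 of 23 on chromosome 4. On X the peaks also had a lower mean AT content, 65.5%, against 69.3 to 70.8% on the 4 arms of chromosomes 2 and 3, and the 3 peaks of chromosome 4 averaged 63%.

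By gene function, no list reached far beyond a few promoters, and the lists were counted, not tested. Of all coding genes, 246 (1.76%) had a start within 500 bp of such a peak, as did 4.38% of the 5322 coding genes in head-to-head pairs. Mitochondrial ribosomal proteins had 6 of 73 genes there (8.22%), and 57 of the 73 are in head-to-head pairs. The highest were betaggt-I/mRpL24 with a signal of 371 (217 in replicate 1, 142 in replicate 2), Icmt/mRpL20 with 256 (90.9 and 159) and mRpS18B/Kua with 224 (82.3 and 132). Subunits of RNA polymerase II, its general factors and Mediator had 5 of 62 (8.06%), of which 44 are in head-to-head pairs. The highest was Polr2B/140up, at the gene for the second largest polymerase subunit, with 362. It had 180 in replicate 1 and no replicate 2 summit within 100 bp. CG11247/Polr2H followed with 228 (98.8 in replicate 1, 118 in replicate 2) and MED10/PDCD-5 with 212 (94.3 and 121).

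Genes of tRNAs had 11 of 295 (3.73%), at 8 peaks, against 1.60% of all genes. Some of these peaks lay near more than 1 tRNA gene. Of the 80 tRNA genes in head-to-head pairs, 7 (8.75%) were at such a peak, against 4.34% of all genes in such pairs. The highest were tRNA:Tyr-GTA-1-8/CG8036 with 341 (202 in replicate 1, 144 in replicate 2), tRNA:Pro-CGG-2-3/CG4174 with 332 (132 and 213) and EcR/tRNA:Arg-ACG-1-3 with 215 (74.2 and 124). The last is also the 1 promoter among the 30 ecdysone response genes counted, and its second summit had 160 (37.3 and 117). Replicate 2 had the higher signal in 6 of these 8 tRNA peaks, with a median log2 ratio of replicate 2 to replicate 1 of 0.87 (range -0.49 to 1.95). In the other 118 peaks with a summit of both replicates within 100 bp it was higher in 65, with a median log2 ratio of 0.03. This was seen after the values were known and was not tested.

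The remaining lists had at most 2 genes each. Cytosolic ribosomal proteins had 2 of 92, RpL37A with a signal of 201 (86.3 in replicate 1, 107 in replicate 2) and RpS7 with 145 (64.1 and 82.0). Vesicle traffic had 2 of 86, zetaCOP, a coat subunit, with 214 (104 and 99.1), and Vps24, of the ESCRT-III complex, with 167. Vps24 had 66.9 in replicate 1 and no replicate 2 summit within 100 bp. DNA replication and repair had 2 of 56, the origin recognition subunit gene Orc2 with 152 (58.7 and 95.4) and dup. Respiratory chain and ATP synthase had 1 of 88, COX5B with 215 (99.2 and 119). Translation factors had 1 of 52, eIF4EHP, and splicing had 1 of 35, SRPK. The proteasome (0 of 48, which allows up to 6.25%) and aminoacyl-tRNA synthetases (0 of 33, up to 9.09%) had none. The list of developmental transcription factors and signalling genes (0 of 57, up to 5.26%) also had none. Of the E(spl) genes it held only E(spl)m8-HLH, so the peaks at E(spl)m3-HLH fall outside it. Only 8 of its genes are in head-to-head pairs at all.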

How the data were processed

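D1-eGFP ChIP-seq peak lists from 2 biological replicates of 1 group were used, as assigned by the labels. Nothing beyond those labels says how far the replicates are independent, so the spread between them may be partly technical. The deposited text notes say that the lists derive from alignments of 1 or both replicates and a control file. Aligner, peak caller and IDR threshold were not given in the sources used here. Each deposited signal is the authors' own value per peak, and the other deposited column used is the authors' summit offset from the peak start, in bases. The assembly is dm6 per the labels. No column of an unmapped sample was present.

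Summits were the peak start plus the offset, and positions are 1-based. Starts were those of Ensembl release 115, with transposable elements left out, and sequences came from the NCBI Release 6 assembly. Classes, AT content and words were computed with Python 3.11.15, and exact Clopper-Pearson 95% intervals with scipy 1.17.1. The intervals and the limits for a count of 0 (3 counts of the total) cover counting error of regions only. The spread between replicates is the SD over the 3388 highest peaks of each replicate's list. The classification was tested on simulated data.

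The members and gene lists were chosen with earlier results of these data known. Named are both genes of the 12 highest peaks, the highest on each chromosome, up to 3 per gene list, the 2 lowest and those next to the 500 bp limit. Signal order was that of the IDR list. Other distance limits, summit definitions, peak sets, gene sets and windows were tried as alternatives. Of the listed gene symbols, 8 of 64 replication and repair symbols, 4 of 61 developmental and 5 of 35 ecdysone symbols had no match in the annotation.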

Additional observations from a re-analysis of the deposited data

How the results depend on the processing

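Of 99 alternative values for 11 results, 54 moved by more than the spread between replicates (for the number of peaks, by more than 1.5 times) and 45 did not. This spread is an SD of 2 values. It was only 0.0177 points for the AT difference and 0.0126 points for the share of one-strand genes, so small moves counted there. A change of distance limit or signal cut also alters counts, shares and signals by construction. The AT difference kept its sign throughout, while the ratio of median signals lay on either side of 1, and the causes were not tested. The order in each list below is the same, where a value moved: number of peaks, head-to-head share, median distance to the nearest start, median spacing (all 142 peaks, 359 bp), mean AT content, AT difference from one-strand peaks, median signal, ratio of median signals, DREF share, share of head-to-head promoters and share of one-strand genes with a summit. With a limit of 250 bp these were 74 peaks, 94.6%, 106 bp, 276 bp, 70.6%, 4.43 points, a signal of 235, a ratio of 1.12, 2.94% of promoters and 3.88% of genes. With 1000 bp they were 260 peaks, 83.8%, 167 bp, 520 bp, 1.58 points, 7.31% with the DREF word, 5.30% of promoters and 7.25% of genes. In the 1694 peaks of highest signal they were 75 peaks, 93.3%, 146 bp, 350 bp, 2.20 points, a signal of 281, 2.15% of promoters and 3.21% of genes. With protein-coding genes only they were 95.3%, 128 bp, 70.6%, 3.56 points, a ratio of 1.05 and 7.80% of genes. The peak midpoint gave an AT difference of 2.27 points. Peaks covered over at least 50% in both replicates' lists gave 2.25 points and 5.84% of genes. Windows of 100 bp gave 71.1% AT, 2.93 points and a DREF share of 0.704%, and windows of 500 bp 64.7%, 1.27 points and 14.8%. Head-to-head peaks alone gave 2.72 points and a ratio of 1.04. Without 1 replicate, the ranges were 137 to 168 peaks, 92.0 to 92.9%, 132 to 137 bp, 363 to 375.5 bp, 68.4 to 70% AT, 2.09 to 2.12 points, a signal of 102 to 118 on the replicates' scale, ratios of 0.990 to 1.03, a DREF share of 1.79 to 5.84%, 3.89 to 4.69% of promoters and 5.91 to 5.93% of genes. No paired analysis was possible because there is 1 group and no test. Read depth is unknown, so no limit from depth is given.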

Other observations

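The following promoters of related genes were picked after the values had been seen, from no fixed list, and their signals are given as values only. No count over all genes of these families is given. For scale, 1.60% of all genes and 4.34% of those in head-to-head pairs had a start within 500 bp of such a peak. The genes pont and rept encode the partner ATPases Pontin and Reptin, and each shares a head-to-head promoter with a peak: Sirt6/pont had a signal of 353 (184 in replicate 1, 171 in replicate 2) and mRpL21/rept 162 (65.9 and 97.5). Of the genes of the E(spl) complex, E(spl)m3-HLH and E(spl)mdelta-HLH, which encode Notch-responsive repressors, lay beside such peaks. CG43116/E(spl)mdelta-HLH had 337 (177 in replicate 1, 150 in replicate 2). The higher of the summits at E(spl)m3-HLH had 409 (199 and 216). The other had 253, with 141 in replicate 2 and no replicate 1 summit within 100 bp. Peaks next to subunits of RNA polymerase III and its factors were Polr3E/CG10584 with 378 (190 in each replicate) and sds22/Brf with 354 (215 in replicate 1, 153 in replicate 2).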
